A study of Mus musculus with 8 samples.

Results

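Transcripts of 10 neutrophil and granule genes were followed in cultures of bone marrow-derived macrophages (BMMs). The genes were S100a8, S100a9, Lcn2, Mpo, Elane, Prtn3, Camp, Ltf, Ngp and Ctsg, listed by symbol, and all 10 of the 10 listed were among the 11541 genes of the count table. Messenger RNA had been sequenced from 8 mouse libraries, 4 with the genotype label OGFRL1_KO (here KO-labelled) and 4 with the label OGFRL1_WT (wild type). In both groups, non-adherent marrow cells had been expanded for 4 days with macrophage colony-stimulating factor (M-CSF) at 25 ng/mL, and the labels give no other treatment. The labels give neither the strain, age or sex of the mice nor the mutant allele, and do not say whether each library is a separate mouse. The p-values therefore rest on library-to-library spread, which may be partly technical.

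Neutrophils carry their defence proteins in granules that are filled in order as the cell matures in the marrow. Promyelocytes make the primary (azurophilic) granules with myeloperoxidase and serine proteases, and later stages make the specific granules with lactoferrin, cathelicidin and lipocalin 2, and the cytosolic calgranulins S100A8 and S100A9. M-CSF drives marrow precursors towards macrophages, so granulocyte transcripts in such a culture can come from precursors and neutrophils that remain, and lipocalin 2 and the calgranulins can also be made by macrophages. In bulk libraries, fewer cells of a type and less RNA per cell cannot be told apart.

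Total counts of the table ranged from 39601341 to 61556269 per library. The targeted gene, Ogfrl1, had 163 ± 23.7 CPM (reads of a gene relative to the library total, scaled with TMM factors) under the KO label against 213 ± 73.8 CPM for wild type (SD, n = 4), with overlapping groups, so its counts did not check the genotype labels. Wild-type replicates 1 and 2 stood apart from the other libraries on the first principal component (42.9 and 37.1, against -24.55 to 7.26). They also had the fewest ribosomal RNA reads, 1.79 and 1.83% against 2.71 to 9.1%, the most mitochondrial reads, 6.07 and 7.03% against 1.49 to 3.17%, and the lowest share of uniquely mapped reads, 76.4 and 75.8% against 83.8 to 87%. Wild-type replicates 3 and 4 did not share this state, at -3.68 and -24.55 on that component beside -22.71 to 7.26 for the KO-labelled libraries. For the granule genes followed here, values without wild-type replicates 1 and 2 are given where they change a result. No such values were taken for the genes of the other lists. Macrophage markers were abundant in all libraries, with 16 of 17 listed symbols in the table and 0 passing the test below. The other symbol, Emr1, is an older name of Adgre1, which was in the table. Csf1r, the M-CSF receptor, had 2094 ± 154 CPM in the KO-labelled and 1832 ± 300.5 CPM in wild-type libraries, and Lyz2 15050 ± 793 and 13660 ± 1319 CPM. Ly6g, the defining surface marker of mouse neutrophils, had no row in the table, and of 28 listed markers of mature neutrophils 16 had one.

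The start regions of 5 genes are shown, those of the 3 members with the lowest p between the genotypes (S100a8, S100a9 and Lcn2) and those of the neighbours Elane and Prtn3, whose levels varied differently between libraries. Each is 300 bases from RefSeq (build GRCm38.p6, the assembly of mm10), 250 before and 50 after the start of the gene, 5′ to 3′ on the strand of the gene. Capitals mark the pattern TTNNGNAA on either strand, a loose form of the site of C/EBP factors, the regulators of granule genes. The S100a8 window lies at chr3:90668821-90669120 (plus strand), S100a9 at chr3:90695672-90695971 (minus), Lcn2 at chr2:32387690-32387989 (minus), Elane at chr10:79886062-79886361 (plus) and Prtn3 at chr10:79879417-79879716 (plus).
S100a8: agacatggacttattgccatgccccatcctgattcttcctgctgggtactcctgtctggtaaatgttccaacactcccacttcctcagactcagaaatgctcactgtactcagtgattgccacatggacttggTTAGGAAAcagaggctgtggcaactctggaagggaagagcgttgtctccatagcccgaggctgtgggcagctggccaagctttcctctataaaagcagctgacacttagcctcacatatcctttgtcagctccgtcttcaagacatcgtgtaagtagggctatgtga
S100a9: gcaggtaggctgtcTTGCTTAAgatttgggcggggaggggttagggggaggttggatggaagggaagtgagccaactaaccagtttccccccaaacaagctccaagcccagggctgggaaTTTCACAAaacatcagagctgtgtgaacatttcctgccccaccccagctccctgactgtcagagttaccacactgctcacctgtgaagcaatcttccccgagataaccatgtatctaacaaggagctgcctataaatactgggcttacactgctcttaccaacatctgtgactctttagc
Lcn2: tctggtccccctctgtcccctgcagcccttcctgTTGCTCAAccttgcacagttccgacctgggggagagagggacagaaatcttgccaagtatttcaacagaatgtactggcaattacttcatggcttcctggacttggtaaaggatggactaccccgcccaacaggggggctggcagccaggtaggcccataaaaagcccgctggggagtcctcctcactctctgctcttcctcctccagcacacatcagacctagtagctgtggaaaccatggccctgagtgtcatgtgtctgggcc
Elane: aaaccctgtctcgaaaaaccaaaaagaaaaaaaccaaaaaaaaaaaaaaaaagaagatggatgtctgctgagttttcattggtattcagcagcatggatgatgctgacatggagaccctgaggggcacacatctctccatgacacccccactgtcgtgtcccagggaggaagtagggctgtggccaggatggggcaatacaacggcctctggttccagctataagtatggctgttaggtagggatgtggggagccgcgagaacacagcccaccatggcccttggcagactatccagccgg
Prtn3: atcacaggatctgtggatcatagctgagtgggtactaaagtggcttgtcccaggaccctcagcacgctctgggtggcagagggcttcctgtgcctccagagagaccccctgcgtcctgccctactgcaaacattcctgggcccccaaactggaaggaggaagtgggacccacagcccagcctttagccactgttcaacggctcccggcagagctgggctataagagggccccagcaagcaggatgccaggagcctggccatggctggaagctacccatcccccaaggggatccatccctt

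The pattern was present in the windows of S100a8, S100a9, Lcn2, Ltf and Ngp, 5 of the 10 genes, and in 40.7% of 32851 windows of all genes. These 5 are calgranulin, lipocalin or specific granule genes, and the windows of the primary granule genes Mpo, Elane, Prtn3 and Ctsg and of Camp held none. GAGGAA, a core of the site of the myeloid factor PU.1, was present on either strand in 7 of the 10 windows, against 28.3% of all windows, among them those of all 4 primary granule genes. The matches of the 2 patterns did not overlap. These are matches of letters in a window and say nothing of binding.

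The 10 genes sit on 6 chromosomes in mm10 and share no exon with another row of the table. S100a8 (chromosome 3, 90669071 to 90670034) and S100a9 (90692630 to 90695721) are neighbours on opposite strands. Prtn3 (chromosome 10, 79879667 to 79883172) ends 3140 bases before Elane (79886312 to 79888216) on the same strand. Camp, Ngp and Ltf lie apart on chromosome 9 (109847377, 110419808 and 111019292), and Lcn2, Mpo and Ctsg on chromosomes 2, 11 and 14.

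Levels of the 10 genes per kilobase of transcript spanned a wide range, with late granulocyte products at the top and the primary granule proteases at the bottom. S100a9, the larger calgranulin, had a mean of 111 CPM per kilobase over the 8 libraries (92.0 to 147). Ngp, a mouse granule protein of the cathelicidin and cystatin fold, had 106 CPM per kilobase (90.3 to 125.0), and S100a8, the partner of S100a9 in calprotectin, had 72.9 (51.3 to 91.7). The ranges of neighbours in this order of 3 overlapped, and all lay above the next group. Ltf, the iron-binding lactoferrin, had a mean of 20.9 CPM per kilobase, Lcn2, a lipocalin that binds bacterial siderophores, 19.25, and Camp, the precursor of the cathelicidin peptide, 14.9, again with overlapping ranges. Among primary granule genes, Mpo, the enzyme that makes hypochlorous acid, had 6.90 CPM per kilobase (5.62 to 8.17) and Elane, neutrophil elastase, 4.27 (2.82 to 5.03), and these ranges did not overlap. Prtn3, proteinase 3, had 1.96 and Ctsg, cathepsin G, 1.67 CPM per kilobase, with overlapping ranges. For scale, Lyz2, the macrophage and granulocyte lysozyme, had 13580 CPM per kilobase. Raw counts ran from 35 reads of Prtn3 in wild-type replicate 1 to 8492 reads of Ngp in wild-type replicate 3, so counting error is largest for Prtn3 and Ctsg.

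**Figure D1:**
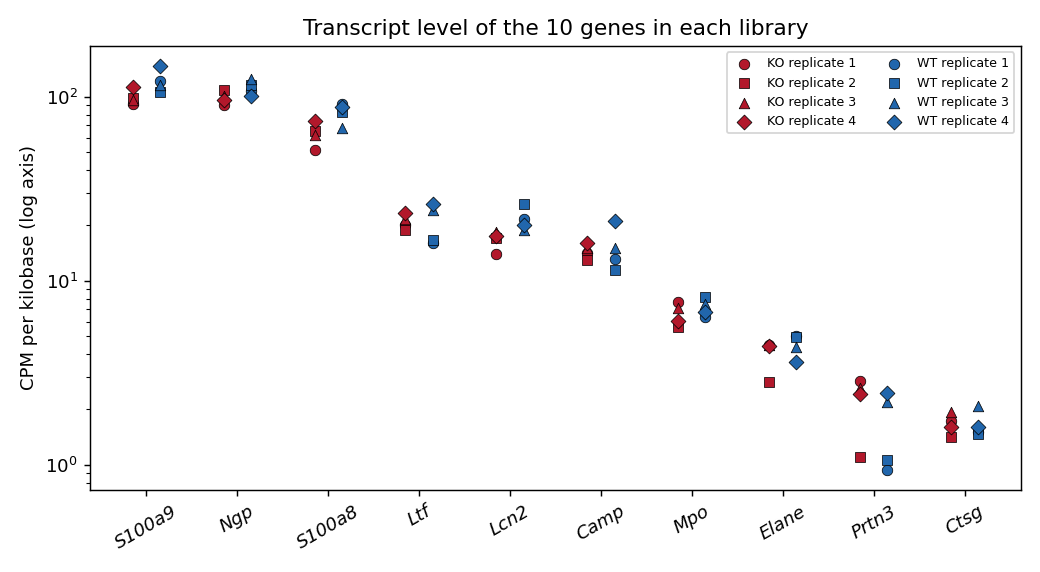
Transcript level in CPM per kilobase (log axis) of the 10 genes, ordered by mean, with 1 point per library (KO-labelled in red, wild type in blue, marker shape for the replicate). S100a9, Ngp and S100a8 lie highest, and Prtn3 is low in KO-labelled replicate 2 and wild-type replicates 1 and 2.

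KO-labelled and wild-type libraries were compared gene by gene. None of the 10 genes passed the edgeR quasi-likelihood test at an adjusted p under 0.05 (0% of all 11541 genes did, with a lowest adjusted p of 0.404). The calgranulin genes and Lcn2 came nearest, and their values were lower under the KO label. At an unadjusted p under 0.05 there were 3 of the 10, all lower, where 6.52% of all 11541 genes had such a p (752 genes), 4.51% with lower values. The log2 fold change was below 0 for 8 of the 10, where it was for 50.7% of all genes, and its median was -0.13 beside -0.005 over all genes. Groups did not overlap in 1 of the 10, Lcn2, against 2.64% of all genes (1.42% with KO-labelled values lower).

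S100a8 had 20.1, 25.6, 24.4 and 28.95 CPM in KO-labelled replicates 1 to 4, and 35.95, 32.3, 26.6 and 34.7 CPM in wild-type replicates 1 to 4. The groups overlapped through KO-labelled replicate 4, the highest of its group, which lay above wild-type replicate 3. The log2 fold change was -0.39 (SE 0.13, 95% CI -0.69 to -0.08), the edgeR adjusted p was 0.404 (0.018 before adjustment), and the exact two-sided permutation p was 0.0571. S100a9 had 48.2, 51.8, 50.2 and 59.0 CPM with the KO label and 63.6, 55.6, 60.8 and 77.0 CPM with the wild-type label. Here too the overlap came from KO-labelled replicate 4, which lay above wild-type replicate 2. The log2 fold change was -0.30 (SE 0.11, 95% CI -0.55 to -0.04), and the exact permutation p was 0.0571, beside an edgeR adjusted p of 0.404 (0.027 before adjustment). The ratio of S100a8 to S100a9 reads was 0.417 to 0.495 in the KO-labelled libraries, 0.565 and 0.582 in wild-type replicates 1 and 2, and 0.437 and 0.450 in wild-type replicates 3 and 4, so it split wild type rather than the genotypes.

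Lcn2 had 11.9, 14.6, 15.8 and 15.01 CPM in KO-labelled replicates 1 to 4, and 18.6, 22.4, 16.1 and 17.1 CPM in wild-type replicates 1 to 4. Every KO-labelled value lay below every wild-type value, also in unscaled CPM and in the authors' log2 FPKM, but the gap between KO-labelled replicate 3 and wild-type replicate 3 was small. The log2 fold change was -0.37 (SE 0.13, 95% CI -0.67 to -0.07), and the edgeR adjusted p was 0.404 (0.0202 before adjustment). The exact permutation p was 0.0286, the smallest that 70 assignments of 4 and 4 allow. The authors' deposited table gave log2 fold changes of -0.39 for S100a8, -0.30 for S100a9 and -0.37 for Lcn2, each with a false discovery rate of 0.447.

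**Figure D2:**
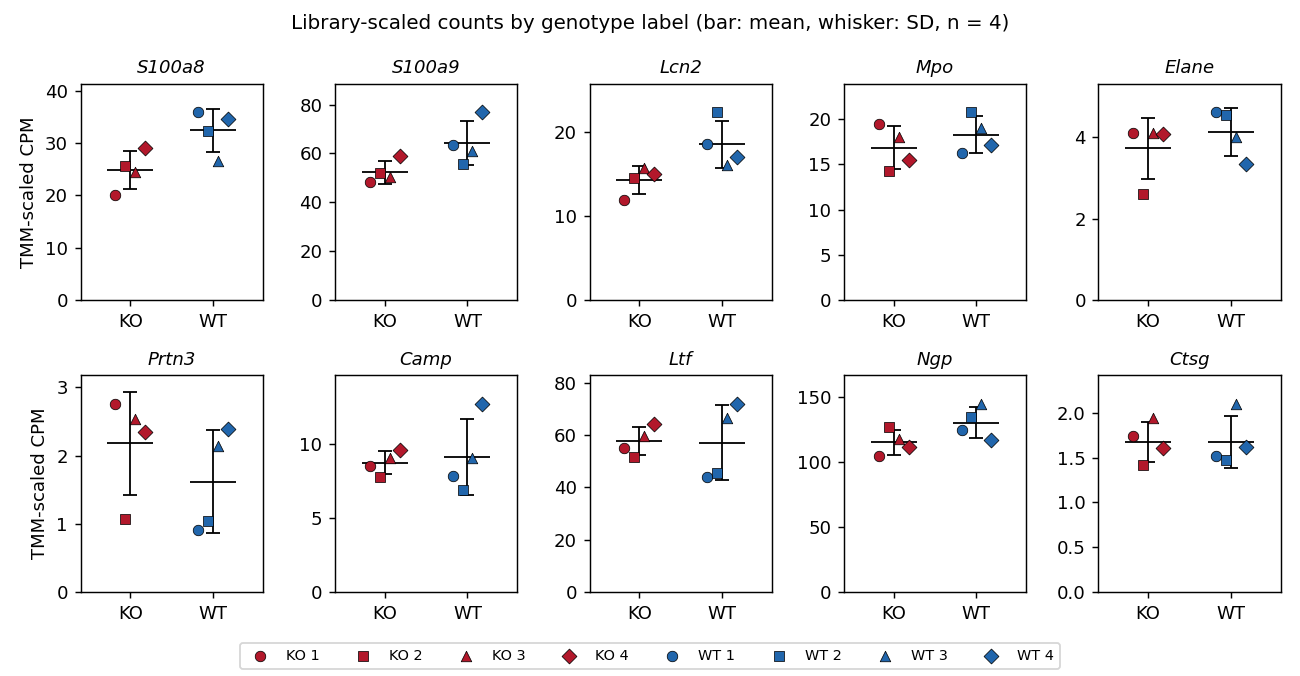
TMM-scaled CPM of each gene by genotype label, with 1 point per library, the group mean as a bar and the SD as whiskers (n = 4). Groups are separate for Lcn2 alone, and S100a8 and S100a9 overlap by 1 KO-labelled library each.

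The specific granule members Ngp, Ltf and Camp had log2 fold changes closer to 0. Ngp had 105, 127, 118 and 111.5 CPM in KO-labelled replicates 1 to 4 and 124.5, 135, 145 and 117 CPM in wild type. The log2 fold change was -0.18 (SE 0.09, edgeR adjusted p = 0.404, exact permutation p = 0.143), and the groups overlapped. Ltf had 55.0, 51.7, 59.7 and 64.1 CPM in KO-labelled replicates 1 to 4 against 44.1, 45.7, 66.65 and 72.0 CPM in wild type, where replicates 1 and 2 were the lowest of all 8 libraries and replicates 3 and 4 the highest. Its log2 fold change was 0.012 (95% CI -0.37 to 0.40, edgeR adjusted p = 0.966). Camp had 7.75 to 9.58 CPM under the KO label and 6.88 to 12.7 CPM for wild type, with a log2 fold change of -0.068 (95% CI -0.49 to 0.35, edgeR adjusted p = 0.809). Without wild-type replicates 1 and 2 the log2 fold changes were -0.27 for Ltf, -0.32 for Camp, -0.40 for S100a9, -0.31 for S100a8 and -0.21 for Lcn2. In that fit Ltf and S100a9 were the members with an unadjusted p under 0.05, against 0.996% of all genes, S100a8 and Lcn2 were not among them, and every member had an edgeR adjusted p of 1. The share of all genes with such a p depended strongly on single libraries. It was 1.94, 14.1, 1.16 and 1.64% without KO-labelled replicates 1, 2, 3 and 4, and 1.36, 1.32, 14.5 and 45.1% without wild-type replicates 1, 2, 3 and 4. The members numbered 1, 3, 2 and 3 in the former fits and 3, 2, 3 and 3 in the latter, all with lower KO-labelled values. They were not always the same genes. Without KO-labelled replicate 2 or wild-type replicate 4, Ngp was among the 3 and S100a9 was not. In the fit with the 45.1% background, a count of 3 of the 10 is below it. The share was 6.26% with RLE factors, 4.64% with limma-voom, 10.2% with DESeq2 and 6.38% with a filter at 1 CPM in 4 libraries, with 3 members each, and 5.88% with upper-quartile factors, with 2.

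The primary granule genes did not pass, and their 95% confidence intervals all spanned 0. Mpo had 19.5, 14.3, 18.1 and 15.5 CPM in KO-labelled replicates 1 to 4 and 16.2, 20.8, 18.98 and 17.1 CPM in wild type. The groups overlapped over most of their range, with a log2 fold change of -0.12 (SE 0.13, edgeR adjusted p = 0.527). Elane had 4.11, 2.60, 4.11 and 4.09 CPM in KO-labelled replicates 1 to 4 against 4.62, 4.55, 4.02 and 3.33 CPM in wild type, a log2 fold change of -0.15 (SE 0.18, edgeR adjusted p = 0.595). Only KO-labelled replicate 2, with 141 reads, stood below the wild-type range. Without that library the log2 fold change of Elane was -0.007. Ctsg had 1.42 to 1.94 CPM in the KO-labelled and 1.47 to 2.10 CPM in the wild-type libraries, with a log2 fold change of -0.005 (SE 0.17, edgeR adjusted p = 0.986). KO-labelled replicate 2 had the lowest value of its group in all 4 primary granule genes, and the lowest of all 8 libraries in 3 of them.

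Prtn3 parted from its neighbour Elane in wild-type replicates 1 and 2. It had 2.76, 1.07, 2.54 and 2.35 CPM in KO-labelled replicates 1 to 4 and 0.914, 1.03, 2.14 and 2.40 CPM in wild type. The values fell into a low set of 3 libraries, KO-labelled replicate 2 and wild-type replicates 1 and 2, and a high set of the other 5, and each set held both genotypes. The log2 fold change was 0.40 (SE 0.39, 95% CI -0.48 to 1.29), the edgeR adjusted p 0.497 and the exact permutation p 0.2. There were 0.198 and 0.227 reads of Prtn3 per read of Elane in wild-type replicates 1 and 2, and 0.411 to 0.718 in the other libraries. The 3 low libraries were also those with the fewest ribosomal RNA reads, 1.79, 1.83 and 2.71%, where the other 5 had 4.21 to 9.1%. With the ribosomal RNA percentage as a covariate the log2 fold change of Prtn3 was 0.03, and without wild-type replicates 1 and 2 it was -0.061. Single libraries also moved it, to 0.216 and 0.242 without wild-type replicate 1 or 2, and to 0.631 and 0.647 without KO-labelled replicate 2 or wild-type replicate 4. Transcripts of Prtn3 had the highest GC content of the 10 genes, 61.2%, and those of Elane had 57.4%. After a correction for transcript GC content the log2 fold change was 0.12 for Prtn3 and -0.46 for Elane.

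**Figure D3:**
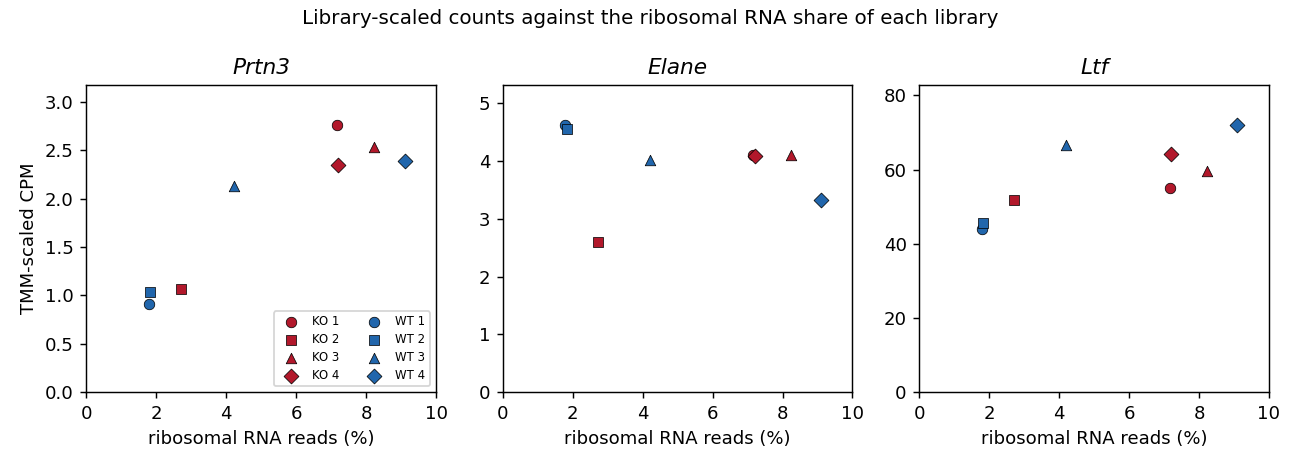
TMM-scaled CPM of Prtn3, Elane and Ltf against the percentage of ribosomal RNA reads in each library (KO-labelled in red, wild type in blue). Prtn3 and Ltf are lowest in the libraries with 1.79 to 2.71% ribosomal RNA reads, where Elane is highest in 2 of the 3 libraries and lowest in the other.

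The same library measures moved with other members. Ltf was lowest in the same libraries as Prtn3, and with the ribosomal RNA covariate its log2 fold change was -0.12 and that of Camp -0.215. Under that covariate S100a8 (-0.38), S100a9 (-0.36) and Lcn2 (-0.32) had an unadjusted p under 0.05, where 7.09% of all genes had, and each had an edgeR adjusted p of 0.568. After the GC correction S100a8 was at -0.21 (edgeR adjusted p = 0.537) and S100a9 at -0.155 (0.623), while Lcn2 was at -0.50 (0.537). Lcn2 was then the 1 member with an unadjusted p under 0.05, beside 6.52% of all genes. The part of the mitochondrial and uniquely mapped shares in these differences was not tested, and that of ribosomal RNA and GC content was not tested further. Transcripts of S100a8 and S100a9 had the lowest GC content of the 10 genes, 44.5 and 45.4%, and those of Lcn2 had 53.4%.

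**Figure D4:**
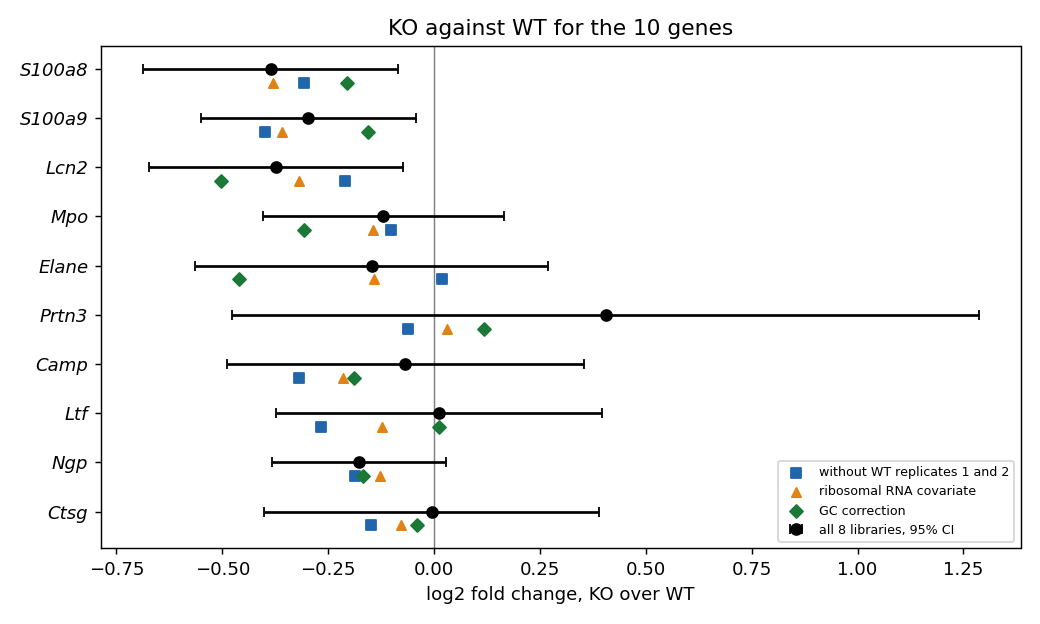
Log2 fold change of KO-labelled over wild-type libraries for the 10 genes, with the 95% confidence interval of the fit on all 8 libraries in black, and the values without wild-type replicates 1 and 2, with the ribosomal RNA covariate and after GC correction. The intervals of S100a8, S100a9 and Lcn2 lie below 0 before adjustment over all genes, and Prtn3 moves from 0.40 to between -0.061 and 0.12.

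The sum of the 10 genes was 277 to 311.5 CPM under the KO label and 318 to 355 CPM for wild type, with no overlap after TMM scaling. As a share of unscaled counts the groups did overlap, at 0.0279 to 0.0315% against 0.0307 to 0.0357%. The overlap came from wild-type replicate 1, at 0.0307%, which lay below KO-labelled replicate 4, at 0.0315%. Wild-type replicates 2, 3 and 4 had 0.0318, 0.0357 and 0.0357%. Ngp alone made up 33.0 to 42.6% of these reads. Both sums are given as a description, without a test.

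How the genes varied together was described over the 6 libraries other than wild-type replicates 1 and 2. KO-labelled and wild-type libraries were pooled, so differences between the labels also enter the correlations and their p-values. The 6 pairs among Mpo, Elane, Prtn3 and Ctsg had Pearson correlations of log2 CPM between 0.59 and 0.89. The 15 pairs among the other 6 genes had a median of 0.73 (-0.13 to 0.92), and the 24 pairs of 1 primary granule gene with 1 of the others had a median of -0.04 (-0.45 to 0.50). The highest was S100a8 with S100a9 (r = 0.92, rho = 0.94, exact permutation p = 0.00694 and 0.0167), and r was 0.79 after the 2 libraries farthest from the median of S100a8 were left out. With those 2 left out, S100a8 with Lcn2 went from r = 0.84 to -0.23. S100a9 with Lcn2 went from 0.73 to 0.30 without the 2 farthest in S100a9. Elane and Prtn3 had r = 0.89 and rho = 0.83 (exact permutation p = 0.0569 and 0.0583, and r = 0.91 without the 2 libraries farthest in Elane). That relation did not hold once wild-type replicates 1 and 2 were included, where r was 0.037 and rho -0.238, and the 6 primary granule pairs then had r between 0.037 and 0.69. The other primary granule pairs were also taken over the 6 libraries without the 2 farthest in the first gene named. Elane with Ctsg then had r = -0.589 and Prtn3 with Ctsg -0.375. Mpo had 0.814 with Elane, 0.462 with Ctsg and 0.198 with Prtn3. For S100a8 and S100a9 r was 0.80 and rho 0.88 over all 8 libraries. The 15 pairs among the other 6 genes then ran from -0.37 (Lcn2 with Ltf) to 0.87 (Camp with Ltf). Pairs of 1 primary granule gene with 1 of the others ran from -0.61 (Lcn2 with Prtn3) to 0.81 (Prtn3 with Ltf). The parting of these classes over the 6 libraries was thus not kept over all 8. No pair passed after Benjamini-Hochberg adjustment over the 45 pairs, with lowest adjusted exact permutation p-values of 0.25 for r and 0.375 for rho.

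The genes most like a member across the 8 libraries were sought for 8 of the 10, among 9872 genes whose log2 CPM averaged 1 or more. Prtn3 and Ctsg lay below that level and were neither searched for nor able to match. The 3 most like genes of each of the 8 included no other of these members. The first by Pearson correlation of log2 CPM was Fnta for S100a8 (r = 0.95), Tsc22d3, encoding a glucocorticoid-induced leucine zipper protein, for S100a9 (0.98), Abca13 for Lcn2 (0.95), and Sema6d for Mpo (0.97). It was Fam216a for Elane (0.98), Bend3 for Camp (0.98), Pde8b for Ltf (0.98) and Lgmn, encoding the lysosomal protease legumain, for Ngp (0.94). Next after Sema6d for Mpo was Cd34, encoding a surface protein of haematopoietic progenitors (r = 0.92). These were picked as the highest of many, so no p is given.

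Wider lists of granule genes, some of which hold members, gave no call either. Of 15 listed primary granule genes, Mpo, Elane, Prtn3 and Ctsg included, 11 were in the table, and 0 passed by edgeR, with 0 at an unadjusted p under 0.05 (background 6.52%), 7 lower and 4 higher by fold change and a median log2 fold change of -0.074. Ctsc, the peptidase that activates the granule serine proteases, had 1180 ± 54.4 CPM in KO-labelled and 1242 ± 113 CPM in wild-type libraries (SD, n = 4). Srgn, the proteoglycan core that packs them, had 86.9 ± 15.02 against 125.0 ± 47.6 CPM (edgeR adjusted p = 0.404). The 20 specific and gelatinase granule genes, Lcn2 and Ngp included, were all in the table, and 0 passed. At an unadjusted p under 0.05, 1 was lower (the member Lcn2) and 1 higher (Slpi), and the median was -0.015. Slpi, an inhibitor of elastase and cathepsin G, had 5.05 ± 1.13 against 3.43 ± 0.63 CPM (log2 fold change 0.55, edgeR adjusted p = 0.404). Mmp8, neutrophil collagenase, had 96.3 ± 11.98 against 120.1 ± 23.9 CPM (log2 fold change -0.32, edgeR adjusted p = 0.404). Of 17 genes that mature or inhibit the proteases 8 were in the table, with 0 passing and 1 (Slpi) at an unadjusted p under 0.05. The primary granule list also held Lyz2, which is among the macrophage markers too. That list summed to 16440 to 18100 CPM in KO-labelled and 14510 to 17120 CPM in wild-type libraries, with Lyz2 means of 15050 and 13660 CPM. Which cells gave the levels of these lists was not tested.

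Markers of mature neutrophils gave a median log2 fold change of 0.084 over 16 genes. By fold change 13 of them were higher and 3 lower under the KO label, where 50.7% of all genes were lower. None passed by edgeR. At an unadjusted p under 0.05, as 6.52% of all genes were, lay Cd24a, lower (8.67 ± 0.84 against 11.2 ± 1.70 CPM), and Fpr2, a formyl peptide receptor, higher. Cxcr2, the chemokine receptor of neutrophils, had 1.44 ± 0.20 against 1.38 ± 0.32 CPM, Retnlg 0.84 ± 0.20 against 0.78 ± 0.22 CPM, and Csf3r, the receptor of granulocyte colony-stimulating factor, 12.2 ± 2.07 against 10.45 ± 1.86 CPM. The summed level of the 16 genes was 693 to 763 CPM in the KO-labelled and 626 to 726 CPM in the wild-type libraries, and Alox5ap, also made by macrophages, took 350 ± 21.3 and 313 ± 22.7 CPM of it. Wild-type replicates 1 and 2, which stood apart in library measures, had sums of 626 and 648.5 CPM, below every KO-labelled library. The part of these 2 libraries in the fold changes was not tested.

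Factors of the granulocyte lineage were present at low to moderate levels. Of 20 listed, 16 were in the table and 0 passed, with a median log2 fold change of -0.032. At an unadjusted p under 0.05 (6.52% of all genes in either direction), 1 was lower (Cebpz) and 1 higher (Spi1, encoding PU.1). Spi1 had 210.4 ± 16.9 against 177.7 ± 18.75 CPM (log2 fold change 0.24), and Cebpz 68.6 ± 7.26 against 91.2 ± 21.45 CPM (-0.41). The edgeR adjusted p was 0.404 for both. Cebpe, the C/EBP factor of specific granule genes, had 1.48 ± 0.31 against 1.51 ± 1.08 CPM, with a wide spread in wild type. Cebpa, which opens the granulocyte programme, had 69.8 to 136 against 46.8 to 134 CPM, and Myb, a factor of immature precursors, 2.80 ± 0.60 against 3.85 ± 0.83 CPM (edgeR adjusted p = 0.404). Progenitor markers had 7 of 13 genes in the table and summed to 15.7 to 21.8 CPM in the KO-labelled and 16.5 to 24.1 CPM in wild type, with 0 passing, and their part in the levels of the granule genes was not tested.

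The other S100 genes and the receptors of these proteins also gave no call. Of 17 genes listed with the S100 family 9 were in the table. At an unadjusted p under 0.05 lay 3, all lower (4.51% of all genes were lower at such a p). They were the members S100a8 and S100a9, and S100pbp, which encodes a protein that binds an S100 protein (13.5 ± 0.99 against 17.3 ± 3.54 CPM). No S100 gene outside the members was among them. S100a4 had 285 ± 23.9 against 281 ± 77.6 CPM and S100a6 159.0 ± 15.2 against 149.5 ± 27.8 CPM, with log2 fold changes of 0.021 and 0.089. S100a11 had 88.6 ± 33.2 against 150.4 ± 82.4 CPM (log2 fold change -0.76, 95% CI -1.71 to 0.18, edgeR adjusted p = 0.404). Of 13 receptor genes 10 were in the table and 0 passed. Tlr4, the Toll-like receptor reported to bind calprotectin, had 144.0 ± 9.44 against 169.5 ± 34.3 CPM, its co-receptor Ly96 9.76 ± 0.86 against 15.3 ± 6.46 CPM, and Ager, another S100 receptor, 0.82 ± 0.21 against 0.50 ± 0.14 CPM (edgeR adjusted p = 0.404 for each of the last 2).

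Lcn2 is also induced in macrophages by inflammatory stimuli, so genes induced with it were listed. Of 21, 18 were in the table and 0 passed by edgeR. Those with an unadjusted p under 0.05 numbered 6, each of them higher under the KO label (2.01% of all genes were) while Lcn2 was lower. Tnf had 52.1 ± 4.73 against 37.6 ± 5.07 CPM, and Il1b, another inflammatory cytokine, 0.94 ± 0.25 against 0.52 ± 0.081 CPM (edgeR adjusted p = 0.404 for both), and the others were the chemokine gene Ccl4, Marcksl1, Irg1 and Zc3h12a. The 18 genes summed to 553 to 594 CPM under the KO label and 471 to 543 CPM for wild type, where replicates 1 and 2 had 497 and 471 CPM. No values without those 2 libraries, with the ribosomal RNA covariate or after GC correction were taken for these genes. Nfkbiz, encoding the NF-κB cofactor needed for Lcn2 induction, had 16.5 ± 1.01 against 15.9 ± 2.29 CPM (log2 fold change 0.058). Markers of eosinophils, basophils and mast cells had 2 of 16 genes in the table (Prg2 and Ccr3), summing to 1.69 to 2.99 CPM. Those of erythroid cells and megakaryocytes had 3 of 15, those of lymphocytes 0 of 13 and those of stromal cells 8 of 11. The stromal sum was 29.2 to 102 CPM under the KO label and 19.2 to 138 CPM for wild type. All 8 stromal genes had log2 fold changes below 0, where 50.7% of all genes did. Within wild type Col1a2 ran from 3.76 to 42.3 CPM and Runx2 from 5.875 to 9.845 CPM. Monocyte markers had 10 of 11 genes in the table. None of these passed.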

How the data were processed

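RNA from 8 BMM libraries (4 per genotype label) was isolated with Ribozol and made into libraries with a KAPA mRNA kit, per the labels' protocols. The deposited counts are raw read counts per gene. STAR and mm10 are named in the submitters' processing notes and featureCounts in the file headers, with versions, annotation and strand setting not given in the sources used here. Log2 FPKM values are deposited beside them, and the authors' own comparison gives log2 fold changes with a p-value and its FDR, per the file headers. Mapping percentages and gene lengths are also theirs.

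Counts were compared by edgeR 4.0.16 in R 4.3.3 (quasi-likelihood, TMM, default filter, which removed no gene, two-sided, Benjamini-Hochberg over 11541 genes, threshold 0.05), after a test on simulated data. CPM are TMM-scaled, and log2 CPM used a prior count of 2. Exact permutation tests used log2 CPM. No 2 libraries agreed within sampling noise (chi-square per degree of freedom 7.25 to 346). All per-sample columns were mapped to a library. Replicates were numbered in accession order, and nothing pairs libraries. The GC correction smoothed each library's deviations on GENCODE transcript GC (96.3% of genes matched) by loess (span 0.3) and used the fit as offsets. Alternatives included DESeq2 1.42.0 and limma-voom (limma 3.58.1).

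The members and lists were chosen with earlier results of these data known, so no p was adjusted over a list. Named were all members, up to 4 genes per list with the smallest p, defining markers, and the 3 genes most like each member; other list genes named were chosen after their values were seen. Not every gene under this rule is printed.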

Additional observations from a re-analysis of the deposited data

Results flagged for a closer look

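Elane in KO-labelled replicate 2 stood apart from the other 3 libraries of its group: its gap to the nearest of them was 0.983 of the group's whole range, beyond Dixon's 95% critical value for 4 samples. The library had 2.60 CPM and the others 4.09 to 4.11 CPM. It was the single such case among the 10 genes in both groups, and chance gives about 1 in 20.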

How the results depend on the processing

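S100a8, S100a9, Lcn2, Mpo and Ngp stayed below 0 in all 17 alternatives, with log2 fold changes of -0.47 to -0.21, -0.40 to -0.155, -0.50 to -0.21, -0.31 to -0.049 and -0.23 to -0.12. An unadjusted p under 0.05 was reached in 15, 11 and 14 of them for the first 3, in 0 for Mpo and in 2 for Ngp. No alternative gave a member an adjusted p under 0.05. DESeq2 called 1 gene over the whole table, Cxcl16 (log2 fold change 0.23, adjusted p = 0.0456), not a member, and the other alternatives called 0. The number of members at an unadjusted p under 0.05 was 1 after the GC correction and 1 to 3 with each library left out, 1 of these without KO replicate 1 and 2 without KO replicate 3 or WT replicate 2. Without wild-type replicates 1 and 2 the sign turned for Elane (0.019), Prtn3 (-0.061) and Ltf (-0.27), and with the ribosomal RNA covariate for Ltf (-0.12). Ctsg turned to 0.03 with upper-quartile factors. With each library left out, Prtn3 ran from 0.216 to 0.647, Camp from -0.18 to 0.14, Ltf from -0.094 to 0.14, Ctsg from -0.083 to 0.13 and Elane from -0.24 to -0.007. The causes were not tested. Dropping the default filter changed nothing, since it removed no gene, and the filter at 1 CPM in 4 libraries kept 10897 genes. No paired analysis was possible because the titles give each library a different number. Depth limits Prtn3 and Ctsg most, at 35 to 148 and 58 to 123 reads.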
